A study of Arabidopsis thaliana with 6 samples.

Results

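Heat shock factors are the transcription factors that switch on chaperone genes when proteins unfold, and the chaperones they induce hold, refold or pull apart damaged proteins. The genes described here are 10 of that system in Arabidopsis thaliana, chosen by name from the 33341 genes of each deposited table: 5 heat shock factors (HSFA2, HSFA7A, HSFA7B, HSFB1 and HSFB2A), 3 large cytosolic chaperones (HSP101, HSP90.1 and the HSP70 gene AT3G12580) and 2 immunophilins (ROF1 and ROF2). Their counts of RNA sequencing reads were compared between wild-type seedlings (labelled Col) and seedlings labelled pp7l-1, a mutant of SERINE/THREONINE-PROTEIN PHOSPHATASE7-LIKE (PP7L), with 3 libraries in each group. All seedlings were 4 days old and had grown at 22 °C in long days under 100 µmol photons m-2 s-1, on 0.8% agar with 1% sucrose. No heat treatment is named in the labels. The series title ties PP7L to how chloroplasts develop.

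As background, heat shock factors of class A carry an activation domain and bind heat shock elements, arrays of the unit GAA and its complement TTC in alternating orientation. The HSFA1 factors are present before stress and act as master regulators, while HSFA2, HSFA7A and HSFA7B are themselves induced by heat and prolong the response. HSFB1 and HSFB2A lack that activation domain and act mainly as repressors that damp the response. In unstressed plants HSP70 and HSP90 proteins hold the HSFA1 factors inactive.

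Heat shock elements near the 10 genes are shown first, as a feature that played no part in choosing the genes; the search was made with their results known. The RefSeq sequence of assembly TAIR10.1 was searched on both strands over 500 bases ahead of the annotated coding start. An element of 3 units, GAANNTTCNNGAA or its reverse TTCNNGAANNTTC, was present at 6 of the 10 genes, against 1.2% of the windows of 27443 nuclear protein-coding genes. An element of 2 units, GAANNTTC or TTCNNGAA, which every longer element contains, was present at 9 of 10, against 33.9% of all windows. These counts depend on the window: in the 250 bases ahead of the annotated gene start 3 of the 10 genes (HSFA2, HSFA7A and HSFA7B) held a 3-unit element, against 0.386% of all such windows, and the number with a 2-unit element was also 3, against 16.1%. In the 500-base window a 3-unit element was also present at 3 of 7 other cytosolic HSP70 and HSP90 genes and at 4 of 13 small heat shock protein genes. A 2-unit element was present there at 4 of those 7 and at 13 of those 13. In the 250-base window the 2-unit numbers were 0 of 7 and 7 of 13, and 5 of 7 other heat response genes held one. The 3-unit elements, in the direction of transcription, with the units in capitals and 3 bases on each side, were:
HSFA2, plus strand, chr2:11135533-11135551: aacGAAgtTTCtgGAAcat
HSFA7A, plus strand, chr3:19264946-19264964: aagTTCcaGAAgtTTCgac
HSFA7A, plus strand, chr3:19264996-19265014: cgtTTCcaGAAgtTTCtaa
HSFA7B, plus strand, chr3:23399076-23399094: aagTTCcgGAActTTCtaa
HSFB2A, plus strand, chr5:24916063-24916081: tagGAAgtTTCttGAAgcc
HSP90.1, plus strand, chr5:21352259-21352277: aaaGAActTTCtgGAAttc
HSP70, minus strand, chr3:3993851-3993869: cgtGAAcgTTCtcGAAagc
At 3 further genes only a 2-unit element was found:
HSFB1, plus strand, chr4:17440173-17440186: aatTTCtaGAAaca
HSP101, minus strand, chr1:27940330-27940343: agcGAAaaTTCcac
ROF1, plus strand, chr3:9188119-9188132: gtgTTCtcGAAcca
For ROF2 these letters did not occur in the window. HSFA7A held a pair of 3-unit elements, and its 250 bases ahead of the gene start (chr3:19264891-19265140, plus strand) are given whole as the widest context, with the units in capitals:
HSFA7A: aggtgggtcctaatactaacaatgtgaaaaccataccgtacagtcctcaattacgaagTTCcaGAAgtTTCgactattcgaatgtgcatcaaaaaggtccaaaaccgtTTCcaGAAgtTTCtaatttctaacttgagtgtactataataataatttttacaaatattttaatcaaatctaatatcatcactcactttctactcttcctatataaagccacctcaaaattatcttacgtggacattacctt
Of the elements printed, those of HSFB2A, HSP70, HSP101 and ROF1 lie inside the annotated gene ahead of its coding start, that of HSFB1 spans the gene start, and those of HSFA2, HSFA7A, HSFA7B and HSP90.1 lie upstream of the gene. A match of letters is a description and not a shown binding site.

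Total counts lay between 11269557 and 16744328 per library, and after edgeR's TMM scaling a level of 1 CPM (counts per 1000000 scaled reads) stood for 10.8 to 18.0 reads. The 3 wild-type libraries held 24, 22 and 21 reads of PP7L itself, and the 3 labelled pp7l-1 held 280, 247 and 315. The mutated gene's reads were thus more and not fewer there. They separate the groups, but they do not show a lesion, and that the gene is disrupted rests on the label alone. Organelle genes took 70.0%, 68.5% and 73.0% of counts in wild-type replicates 1 to 3. Among pp7l-1-labelled libraries they took 56.0%, 63.1% and 63.9%. The TMM factors were 0.93, 0.93 and 0.75 for wild type and 1.09, 1.05 and 1.35 among pp7l-1-labelled libraries. Neither quantity overlapped between groups, so the scaling cannot be separated from genotype. The 4 nuclear ribosomal RNA genes took 7.56% in pp7l-1 replicate 1 and at most 0.0151% in every other library. Wild-type replicate 3 was the lowest wild-type library for all 10 genes described here, where 34.1% of all tested genes had it lowest. Of the lists described below, its summed level was also lowest for small heat shock proteins (11.5 CPM against 62.9 and 37.6). The same held for the other heat response genes (22.8 against 84.5 and 57.2), cytosolic co-chaperones and mitochondrial chaperones. It also held for the other cytosolic HSP70 and HSP90 genes (392 against 563 and 576) and the green tissue genes (12280 against 13130 and 16130). For the other heat shock factors it was the highest (64.7 against 42.7 and 51.6). Most of that order came from a single gene, the seed development factor HSFA9. Its level was 8.135, 17.37 and 29.69 CPM in wild-type replicates 1 to 3, so the sum does not describe that list as a whole. Wild-type replicate 1 was the highest of its group and pp7l-1 replicate 1 the highest of the other group for all 10 as well, the latter beside 29.4% of all tested genes, and pp7l-1 replicate 3 was the lowest of its group for all 10.

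All 10 genes had a lower mean level among pp7l-1-labelled libraries than in the wild type. In edgeR's quasi-likelihood test across 18115 genes, with a threshold of 0.05 on the adjusted p, 9 of the 10 could be tested and 9 fell, where 11.3% of all tested genes were called lower. Log2 fold changes of the 9 lay between -2.45 and -0.88 with a median of -1.595, beside a median of -0.01 over all tested genes. In 6 of the 10 every library labelled pp7l-1 lay below every wild-type library, which 19.5% of all tested genes did; 0 of the 10 had the opposite arrangement, found in 18.7% of tested genes. The count without overlap rests on the scaling: it was 6 with RLE factors (19.2% of tested genes), 5 with upper-quartile factors (17.9%) and 2 (HSFA7A and HSFB1) on library size alone, where 6.83% of tested genes had that arrangement. In the other 4 (HSP101, HSP70, ROF1 and ROF2) wild-type replicate 3 lay below pp7l-1 replicate 1. Set against the library of the same number, all 10 were lower in all 3 cases, as were 27.3% of tested genes, and 9 of the 10 were on library size alone. None was called higher, where 10.6% of tested genes were. The number called was 5 when wild-type replicate 1, wild-type replicate 2 or pp7l-1 replicate 2 was left out. It was 6 without pp7l-1 replicate 3 and 4 with DESeq2. Across all genes these runs called 1434, 1650, 2219, 1620 and 1604 lower, in that order, beside 2043 in the main fit. All 9 stayed called when the library left out was wild-type replicate 3 (1384 lower in all) or pp7l-1 replicate 1 (1397). How many passed thus depended on single libraries and on the tool. Whole seedlings were read, so fewer cells with a transcript and less transcript per cell cannot be told apart.

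**Figure D1:**
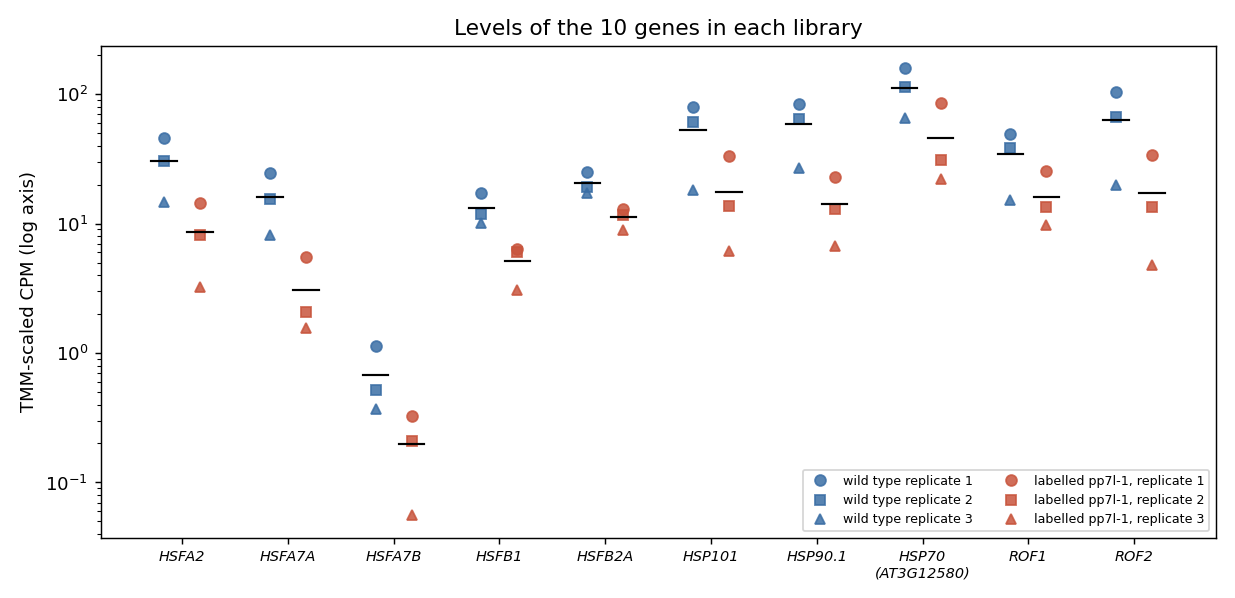
Level of each of the 10 genes in each library, as TMM-scaled CPM on a log axis. Points are single libraries, with a shape for each replicate number, and short bars are means of 3. For HSP101, HSP70, ROF1 and ROF2 the wild-type triangle (replicate 3) lies below the red circle (pp7l-1 replicate 1), while the other 6 genes have groups that do not overlap on this scale.

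Among the activators, HSFA2 (AT2G26150, chromosome 2, 11135624 to 11137792 in TAIR10.1) is the factor most strongly tied to sustained heat tolerance. Its level was 45.8, 30.3 and 14.75 CPM in wild-type replicates 1 to 3 and 14.3, 8.21 and 3.23 CPM in pp7l-1-labelled replicates 1 to 3. The groups did not overlap on this scale, but the gap between the lowest wild-type library and pp7l-1 replicate 1 was small beside the spread within each group. The log2 fold change was -1.85 ± 0.42 (SE; edgeR adjusted p = 0.00558), and DESeq2 gave an adjusted p of 0.0759. HSFA7A (AT3G51910, chromosome 3, 19265141 to 19266806), an activator close in sequence to HSFA7B, had the lowest log2 fold change of the 9 tested genes. It was read at 24.4, 15.4 and 8.17 CPM for wild type and at 5.49, 2.09 and 1.56 CPM among pp7l-1-labelled libraries. Every wild-type library was above every library of the other group, with a log2 fold change of -2.45 ± 0.40 (edgeR adjusted p = 0.000567; -3.14 without pp7l-1 replicate 1).

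HSFA7B (AT3G63350, chromosome 3, 23399236 to 23400812) was barely read and did not pass the filter on low counts. Its counts were 16, 8 and 4 for wild type and 4, 3 and 1 among pp7l-1-labelled libraries. As levels these were 1.13, 0.515 and 0.371 CPM against 0.328, 0.209 and 0.0556 CPM. Wild-type replicate 3 and pp7l-1 replicate 1 held 4 reads each, so their order comes from the scaling alone, and on library size alone the groups overlapped. Fitted without the filter its log2 fold change was -1.83 ± 0.68 (edgeR adjusted p = 0.0428), a value that rests on at most 16 reads in a library. That p-value is not comparable with those of the main fit.

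The class B factors, which act mainly as repressors, had the same direction with less spread between libraries. HSFB1 (AT4G36990, chromosome 4, 17440177 to 17442151) was at 17.3, 11.8 and 10.11 CPM for wild type and at 6.39, 5.98 and 3.06 CPM among pp7l-1-labelled libraries. HSFB2A (AT5G62020, chromosome 5, 24915807 to 24917643) was at 24.8, 19.05 and 17.35 CPM and at 12.9, 11.6 and 8.96 CPM. In both genes the groups did not overlap, although those of HSFB2A did on library size alone, and HSFB2A had the smallest change of the 9. The log2 fold change of HSFB1 was -1.37 ± 0.265 (edgeR adjusted p = 0.00190; DESeq2 0.000282), and that of HSFB2A was -0.88 ± 0.20 (edgeR adjusted p = 0.00636; 0.147 when scaled on library size alone). With any single library left out, HSFA2, HSFA7A, HSFB1, HSFB2A and HSP90.1 still passed.

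HSP101 (AT1G74310, chromosome 1, 27936508 to 27940369, minus strand) is the disaggregase that pulls proteins out of heat-induced clumps and is required for acquired heat tolerance. Its wild-type libraries were at 79.6, 60.8 and 18.1 CPM, and those labelled pp7l-1 at 33.3, 13.6 and 6.12 CPM. Wild-type replicates 1 and 2 were far above all the others, and wild-type replicate 3 lay between pp7l-1 replicates 1 and 2. The log2 fold change was -1.60 ± 0.50 (edgeR adjusted p = 0.0315; -2.43 without pp7l-1 replicate 1). The call was lost on leaving out wild-type replicate 1 (adjusted p = 0.149), wild-type replicate 2 (0.0896), pp7l-1 replicate 2 (0.0734) or pp7l-1 replicate 3 (0.0665), and with DESeq2 (0.249). Of its exon bases 3.004% lie in a neighbouring counted gene, and the other 9 genes share none with a counted gene.

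HSP90.1 (AT5G52640, chromosome 5, 21352557 to 21355147) is the heat-inducible cytosolic HSP90, a chaperone of signalling proteins and of heat shock factors. It was read at 84.3, 64.6 and 27.0 CPM for wild type and at 22.8, 12.9 and 6.68 CPM among pp7l-1-labelled libraries. On the TMM scale the groups did not overlap, with wild-type replicate 3 just above pp7l-1 replicate 1, but on library size alone they did. The log2 fold change was -2.07 ± 0.40 (edgeR adjusted p = 0.00182; DESeq2 0.0199).

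HSP70 (AT3G12580, chromosome 3, 3991117 to 3993886, minus strand) is a heat-inducible cytosolic HSP70 that folds new and damaged proteins. Its levels were 158, 113 and 64.95 CPM for wild type and 84.8, 31.0 and 21.9 CPM among pp7l-1-labelled libraries. Wild-type replicate 3 lay below pp7l-1 replicate 1 and above the other libraries of that group. The log2 fold change was -1.29 ± 0.40 (edgeR adjusted p = 0.0308; -2.08 without pp7l-1 replicate 1). It no longer passed on leaving out wild-type replicate 1 (adjusted p = 0.147), wild-type replicate 2 (0.0716), pp7l-1 replicate 2 (0.0849) or pp7l-1 replicate 3 (0.0803), nor with DESeq2 (0.226).

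ROF1 (AT3G25230, chromosome 3, 9188096 to 9191630) and ROF2 (AT5G48570, chromosome 5, 19690461 to 19693845, minus strand) encode related peptidyl-prolyl isomerases. ROF1 binds HSP90.1 and prolongs the action of HSFA2, which ROF2 curbs. ROF1 was at 49.2, 38.35 and 15.2 CPM for wild type and at 25.3, 13.4 and 9.68 CPM among pp7l-1-labelled libraries. ROF2 was at 103, 66.3 and 19.95 CPM and at 33.8, 13.5 and 4.78 CPM. For both genes wild-type replicate 3 lay inside the range of the libraries labelled pp7l-1. The log2 fold change of ROF1 was -1.10 ± 0.36 (edgeR adjusted p = 0.0406) and that of ROF2 was -1.88 ± 0.55 (edgeR adjusted p = 0.0231; -2.80 without pp7l-1 replicate 1). ROF1 did not pass on leaving out wild-type replicate 1 (adjusted p = 0.201), wild-type replicate 2 (0.114), pp7l-1 replicate 2 (0.0942) or pp7l-1 replicate 3 (0.117), with DESeq2 (0.273), with limma voom (0.0578) or when scaled on library size alone (0.0682). ROF2 did not pass on leaving out wild-type replicate 1 (adjusted p = 0.127), wild-type replicate 2 (0.0579) or pp7l-1 replicate 2 (0.0525), nor with DESeq2 (0.2005).

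Between genes, levels were set side by side per kilobase of exon. In the wild type HSP70 was highest at 44.4 ± 18.5 CPM per kilobase (SD, n = 3), while ROF2 was at 28.6 ± 18.9 and HSP90.1 at 27.9 ± 13.9 CPM per kilobase of coding length, since its RefSeq model holds no untranslated exon. The order of ROF2 and HSP90.1 was not resolved. HSFA2, HSP101, ROF1 and HSFA7A lay between 13.8 and 16.15 CPM per kilobase with SDs of 7.02 to 9.37, so their order was not resolved. HSFB2A was at 11.6 ± 2.24 CPM per kilobase, within the SDs of those 4, and HSFB1 at 7.34 ± 2.11, and HSFA7B at 0.622 ± 0.374 was lowest. In the libraries labelled pp7l-1, HSP70 was again highest at 18.22 ± 13.5 CPM per kilobase and HSFA7B lowest at 0.1825 ± 0.126. HSFB2A was at 6.37 ± 1.16 CPM per kilobase there and HSFA7A at 2.63 ± 1.84.

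The 9 tested genes also varied together from library to library. Over the 6 libraries the Pearson correlation of their log2 levels ran from 0.851 to 0.997 between pairs, with a median of 0.964. This is a description of 6 points that share a genotype difference, a depth and a scaling factor each. Outside the 10, the genes whose levels were most like that of HSFA2 by the same measure were FC1 (AT5G26030, r = 0.998), for the haem enzyme ferrochelatase 1, RHA2B (AT2G01150, r = 0.997), a RING finger protein, the splicing-related RNA-binding protein gene SR45a (AT1G07350, r = 0.997), the RNA gene AT1G04053 (r = 0.996) and NOXY2 (AT5G11630, r = 0.996). Those most like HSP101 were HOP3 (AT4G12400, r = 0.997), for a heat-inducible protein that links HSP70 to HSP90, the DNA glycosylase gene AT3G50880 (r = 0.996), the RNA genes AT3G03215 (r = 0.9935) and AT2G08965 (r = 0.990), and the F-box gene AT5G46170 (r = 0.988).

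Shares within a gene family do not depend on library size or scaling, and they set a gene against its relatives in the same library. HSP90.1 made up 26.51%, 25.3% and 13.2% of the counts of the 4 cytosolic HSP90 genes in wild-type replicates 1 to 3. In the libraries labelled pp7l-1 the share was 11.5%, 8.58% and 4.67%, below every wild-type library. HSP70 (AT3G12580) made up 32.5%, 22.7% and 23.3% of the counts of 5 cytosolic HSP70 genes for wild type and 14.5%, 7.85% and 5.14% among pp7l-1-labelled libraries. Here wild-type replicate 3 was not the lowest of its group, and the groups did not overlap although the levels of the gene did. The share also moves with the rest of the family: HSC70-1, a member of it, was at 203, 285 and 148 CPM for wild type. Among pp7l-1-labelled libraries HSC70-1 was at 392, 295 and 334 CPM, so a lower share does not by itself show less HSP70 transcript.

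The mean share of HSP90.1 was 21.65% ± 7.38 (SD, n = 3) for wild type and 8.25% ± 3.42 among pp7l-1-labelled libraries. For HSP70 the mean shares were 26.1% ± 5.51 and 9.17% ± 4.83. In each case the exact two-sided permutation test gave 0.1, the least possible with groups of 3, and 0.15 after adjustment over the 3 shares computed. ROF2 made up 67.8%, 63.4% and 56.7% of the summed counts of ROF1 and ROF2 for wild type and 57.2%, 50.3% and 33.1% among pp7l-1-labelled libraries, where the groups overlapped (exact permutation p = 0.2, also 0.2 adjusted). Without pp7l-1 replicate 3 the difference in the mean ROF2 share went from -15.78 to -8.895 percentage points. Exact binomial 95% intervals of single libraries were at most 1.43, 1.53 and 5.88 percentage points to either side for HSP90.1, HSP70 and ROF2, and cover counting error only. HSP90.2, HSP90.3 and HSP90.4 are near-identical, as are the constitutive HSP70 genes, so their reads may have been split or dropped by the authors' counting.

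**Figure D2:**
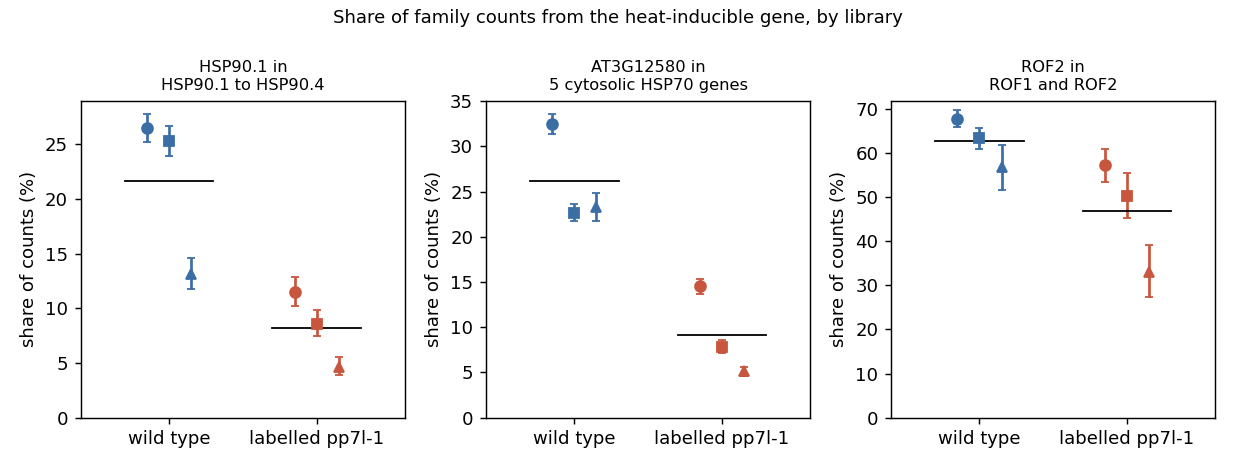
Share of family counts, in percent, that came from HSP90.1, from HSP70 (AT3G12580) and from ROF2 in each library. Points are libraries with exact binomial 95% intervals, with circles, squares and triangles for replicates 1, 2 and 3, and lines are means of 3. HSP90.1 and AT3G12580 lie below every wild-type library in all 3 libraries labelled pp7l-1, while ROF2 overlaps.

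The other cytosolic HSP70 and HSP90 genes, most of them constitutive, did not pass the test. Of these 7 genes 0 were called by edgeR, with 2 at an unadjusted p under 0.05. DESeq2 called 1 higher and 1 lower, and limma voom 1 higher. HSC70-1 (AT5G02500), the main constitutive HSP70, was at 212 ± 69.1 CPM for wild type and 340 ± 48.75 CPM among pp7l-1-labelled libraries, a log2 fold change of 0.68 ± 0.25 (edgeR adjusted p = 0.0660). It was called higher on leaving out wild-type replicate 2 (adjusted p = 0.0267) or pp7l-1 replicate 2 (0.0374), and HSP70-5 (AT1G16030), a heat-inducible relative named after its values were seen, was called lower when wild-type replicate 3 was left out (0.0211). HSP90.2 (AT5G56030), a constitutive HSP90, was at 121.5 ± 22.0 and 80.8 ± 13.2 CPM, with a log2 fold change of -0.59 ± 0.21 (edgeR adjusted p = 0.0578). On the TMM scale the groups did not overlap for HSC70-1, higher in pp7l-1, or for HSP90.2, lower there. Of all tested genes 18.7% and 19.5% had those arrangements.

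Among 16 other heat shock factors 13 could be tested and edgeR called 0, with 2 at an unadjusted p under 0.05. DESeq2 called 1 lower and limma voom 0. Their log2 fold changes lay between -0.83 and 0.68 with a median of -0.19. The master regulators HSFA1A, HSFA1B, HSFA1D and HSFA1E had log2 fold changes of -0.08 ± 0.42, -0.29 ± 0.32, 0.11 ± 0.30 and -0.17 ± 0.54, at mean levels under 3 CPM in both groups. By their mean over all 6 libraries the most abundant were HSFA9 (AT5G54070), a factor of seed development, at 18.4 ± 10.8 and 19.0 ± 21.6 CPM, and HSFA3 (AT5G03720), a heat-induced activator downstream of DREB2A, at 5.98 ± 3.03 and 3.31 ± 0.8785 CPM. HSFA3 was called lower without wild-type replicate 1 (adjusted p = 0.0266), and HSFA9 without pp7l-1 replicate 2 (log2 fold change -1.47, adjusted p = 0.0130), where that library had 43.8 CPM and the others of its group 8.44 and 4.67 CPM.

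**Figure D3:**
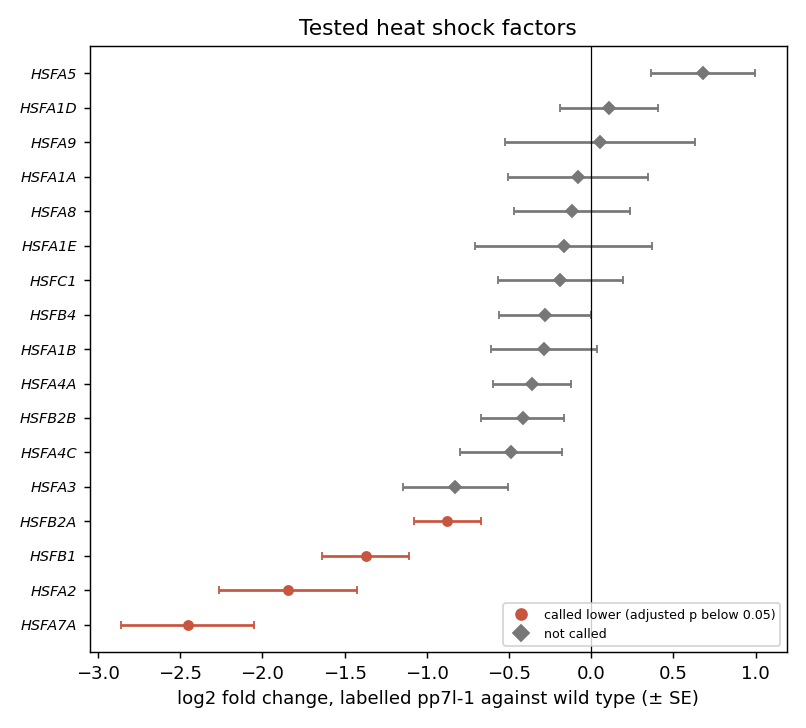
Log2 fold change of the 17 tested heat shock factors, libraries labelled pp7l-1 against wild type, with standard errors from edgeR's quasi-likelihood fit. HSFA7A, HSFA2, HSFB1 and HSFB2A (circles) were called lower, and the other 13 (diamonds), which lie between -0.83 and 0.68, were not called.

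Other genes of the heat response were counted from lists compiled for this comparison. The counts of this and every later list are to be read beside the 11.3% of all tested genes called lower and the 10.6% called higher. In a list of 7 response genes 6 were tested and 5 fell, with a median log2 fold change of -1.12. They include BAG6 (AT2G46240), a heat-induced co-chaperone, with -1.94 ± 0.55, HSA32 (AT4G21320), which lengthens heat memory, with -1.56 ± 0.48, the galactinol synthase gene GOLS1 (AT2G47180) with -1.16 ± 0.39 and DREB2A (AT5G05410), a transcription factor of drought and heat responses, with -1.085 ± 0.30. BAG6 did not pass when wild-type replicate 1 (log2 fold change -1.28, adjusted p = 0.133) or 2 (adjusted p = 0.0550) was left out, and was at -2.62 without pp7l-1 replicate 1. GOLS1 was at -0.51 without wild-type replicate 1 (adjusted p = 0.378), where DREB2A did not pass either (0.122). HSA32 was at -2.30 without pp7l-1 replicate 1, and its adjusted p reached 0.1565 when wild-type replicate 2 was left out. Leaving out wild-type replicate 1 left 0 calls, and the number was 2 on leaving out wild-type replicate 2, pp7l-1 replicate 2 or pp7l-1 replicate 3, or with DESeq2. Of 13 small heat shock proteins 6 were tested and 2 fell, the mitochondrial HSP23.5 (AT5G51440) with -1.62 ± 0.37 and HSP23.6 (AT4G25200) with -1.85 ± 0.55. HSP23.5 passed with each library left out. HSP23.6 did not pass on leaving out wild-type replicate 1 (log2 fold change -1.19, adjusted p = 0.179), wild-type replicate 2 (adjusted p = 0.0573) or pp7l-1 replicate 3 (0.0632), and was at -2.50 without pp7l-1 replicate 1. The list had 4 calls when wild-type replicate 3 or pp7l-1 replicate 1 was left out, and 1 on leaving out wild-type replicate 1, wild-type replicate 2 or pp7l-1 replicate 3.

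Among 17 co-chaperones of cytosolic HSP70 and HSP90, all tested, 3 fell and 2 rose, where 11.3% of all tested genes fell and 10.6% rose. FES1A (AT3G09350), which protects HSP70 from degradation, went from 20.65 ± 11.2 to 6.67 ± 2.91 CPM (log2 fold change -1.66 ± 0.37), SGT1A (AT4G23570), a partner of HSP90 in immunity, from 59.0 ± 31.6 to 18.9 ± 11.7 CPM (-1.65 ± 0.41), and HOP3 from 14.9 ± 8.13 to 5.36 ± 4.09 CPM (-1.52 ± 0.45). HOP1 (AT1G12270), a relative of HOP3, rose from 2.46 ± 0.320 to 4.74 ± 1.14 CPM. FES1A passed with each library left out, while SGT1A did not pass on leaving out wild-type replicate 1 (adjusted p = 0.0597), HOP1 not on leaving out wild-type replicate 2 (0.0606) or pp7l-1 replicate 3 (0.0623), and HOP3 in 4 of the 6 cases with 1 library left out (adjusted p from 0.0557 to 0.1305). Without pp7l-1 replicate 1 the log2 fold change was -2.24 for SGT1A and -2.29 for HOP3. Lower calls in the list numbered 1 when wild-type replicate 1 was left out, 5 when wild-type replicate 3 was left out, and 0 with DESeq2.

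Lists of tissue markers differed between the groups too. Summed over 12 root genes, levels were between 103 and 114 CPM for wild type and between 27.0 and 51.4 CPM among pp7l-1-labelled libraries, and 9 of 11 tested root genes fell, among them PIP2;4, CASP2 and CASP5. Summed over 12 seed storage and embryo genes, levels were between 6.76 and 10.7 CPM and between 38.2 and 142 CPM, and 7 of the 12, among them CRC, SESA3, CRA1 and SESA5, were called higher. Several entered the test only through their pp7l-1-labelled libraries: SESA3 had wild-type counts of 5, 1 and 3 and SESA5 of 7, 6 and 5, so the number tested, the calls and the folds of such genes are not independent of the direction. Of 7 green tissue genes 2 rose, RCA and PSAD1, with 0 calls when wild-type replicate 1 or pp7l-1 replicate 1 was left out and 1 without wild-type replicate 3. The summed level of the 10 heat response genes described here was 588, 420.0 and 196 CPM for wild type and 239.5, 112 and 66.0 CPM among pp7l-1-labelled libraries. The root sums of wild-type replicates 1 to 3 were 105, 103 and 114 CPM. The part of tissue composition in the lower heat gene levels was not tested.

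**Figure D4:**
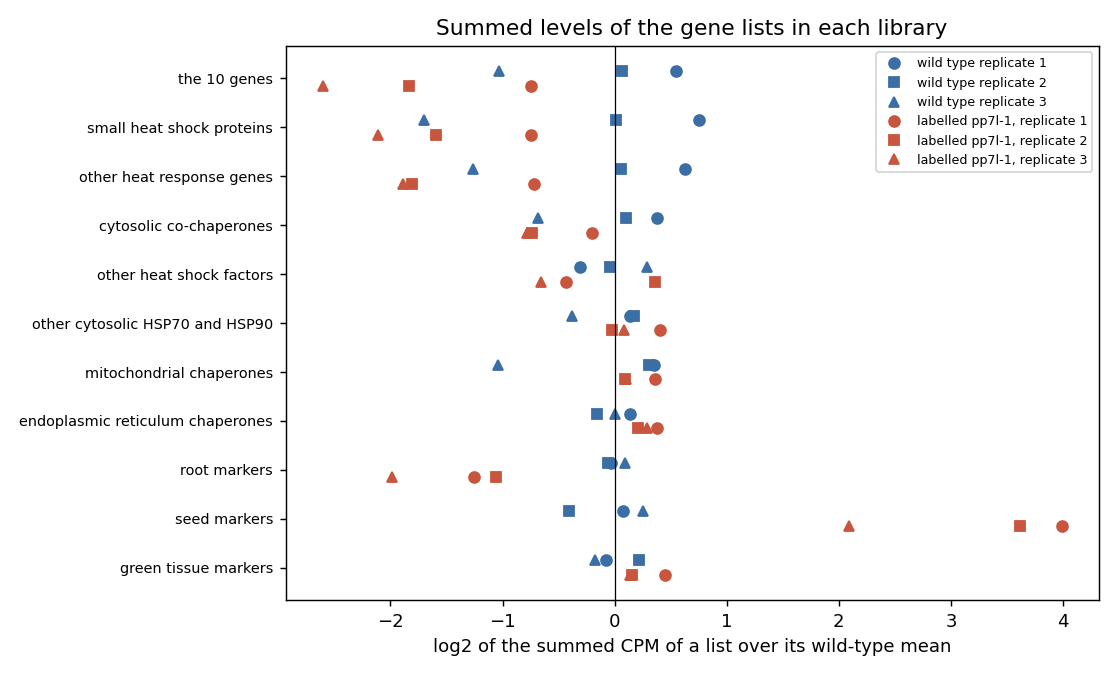
Summed CPM of each gene list in each library, as log2 of its ratio to the wild-type mean of that list. Points are libraries, with a shape for each replicate number. For the 10 genes wild-type replicate 3, at 196 CPM, lies below pp7l-1 replicate 1, at 239.5 CPM, whereas the root list is lower and the seed list higher in all 3 libraries labelled pp7l-1.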

How the data were processed

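RNA from whole seedlings was sequenced from TruSeq libraries, per the labels' protocols. The authors deposited a table of raw read counts per gene for each library. Trimmomatic, FastQC, TopHat2 2.1.1, featureCounts and the build TAIR10 are named, per the submitters' processing notes; the annotation, strand setting and treatment of shared reads are not given in the sources used here. Of 33341 gene codes 33056 were matched by code to RefSeq TAIR10.1, the source of lengths, coordinates and sequence.

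Counts were filtered with filterByExpr (minimum count 10), scaled by TMM and tested with the quasi-likelihood test of edgeR 4.0.16 (R 4.3.3), with genotype as the only term and Benjamini-Hochberg adjustment over 18115 genes. The common biological coefficient of variation was 0.196. The script was tested on simulated data with that coefficient for every gene, a setting that does not cover genes that vary more between libraries. TMM is the trimmed mean of M-values. Shares were compared with an exact permutation test (SciPy 1.17.1). Alternatives were DESeq2 1.42.0, limma voom 3.58.1, other scalings, filters and gene sets, a replicate block, and each library left out. Whether replicates were grown separately is not stated in the labels, so p-values reflect the spread between these libraries only, and that spread may be technical.

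The 10 genes and the other lists were chosen with earlier results of these data known. All 10 are named; from every other list up to 4 called genes with the largest change were named, or the most abundant pair where 0 were called, together with the 4 HSFA1 factors, and for HSFA2 and HSP101 the 5 most correlated genes. A gene that this rule names among the root markers is not reported here.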

Additional observations from a re-analysis of the deposited data

How the results depend on the processing

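All 9 fitted log2 fold changes of the heat shock factors and chaperones stayed negative under every alternative run. Of the 9, DESeq2 called 4 lower (3153 of all genes called, 1604 lower). Leaving out 1 library gave 5 to 9 lower, and the cause of the lost calls was not tested. Without a count filter 10 were called lower, HSFA7B included, beside 2448 of 28659 genes. Standard errors in that fit were unlike those of the main fit. They were 0.216 against 0.42 for HSFA2 and 0.22 against 0.55 for ROF2, though 0.208 against 0.203 for HSFB2A. Its adjusted p-values, that of HSFA7B included, are therefore not comparable with those of the main fit. Across all genes 1929 were higher and 2043 lower. With 1 library left out the totals ran from 2671 to 4365, higher genes from 1274 to 2146 and lower genes from 1384 to 2219. Scaled on library size alone 4493 were higher and 759 lower, the all-gene median log2 change shifted from -0.01 to 0.41, 7 of the 9 were lower, and the genes without overlap between groups numbered 2 of 10 in place of 6 (a comparison chosen after seeing the data). With replicates 1 and 2 alone, chosen after seeing the data, 2269 genes were called, 1052 higher and 1217 lower, and 9 of the 9 were lower.

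The replicate numbers were checked as pairs. Deviations from the group means correlated by 0.11, -0.026 and 0.064 between same-numbered libraries, so the numbers were not taken to pair the samples. These correlations are over all 18115 tested genes. For all 10 genes described here replicate 1 was the highest and replicate 3 the lowest in both groups, so the check cannot decide on pairing for them. With the replicate block 4153 genes were called (1987 higher, 2166 lower), and all 9 were lower, with adjusted p between 1.01e-06 and 0.00247. The block gave 4 lower small heat shock proteins and 4 lower co-chaperones, 1 other lower heat shock factor, 1 other lower cytosolic HSP70 or HSP90 gene and 8 lower root genes, and left the other list counts as they were. All 10 genes were lower in each of the 3 same-numbered pairs, as were 27.3% of tested genes. For the shares, differences under the block were those of the unpaired means (-13.4, -16.97 and -15.78 points; exact sign-flip p of 0.25 at the least). HSFA7B, with at most 16 reads per library, is limited by depth.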

Other observations

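Chaperones of other compartments did not share one direction. Among 11 genes of the endoplasmic reticulum 10 were tested, 4 rose and 2 fell. The luminal HSP70 gene BIP2 (AT5G42020) rose from 11.3 ± 0.871 to 21.0 ± 1.39 CPM (log2 fold change 0.88 ± 0.18) and the lectin chaperone gene CNX1 (AT5G61790) from 15.1 ± 1.92 to 28.0 ± 2.04 CPM (0.90 ± 0.18), and both passed with each library left out. BZIP60 (AT1G42990), a transcription factor of the unfolded protein response, fell from 40.2 ± 5.65 to 22.2 ± 4.48 CPM (-0.86 ± 0.21). ERDJ3A (AT3G08970), a DnaJ protein of that compartment, had -1.53 ± 0.51 (edgeR adjusted p = 0.0410) and, like HSP101, its groups overlapped. It did not pass in 4 of the 6 cases with 1 library left out (adjusted p from 0.0509 to 0.206).

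Of 6 mitochondrial chaperone genes 2 rose and 1 fell. MTHSC70-1 (AT4G37910), a mitochondrial HSP70, rose from 7.74 ± 1.84 to 22.75 ± 2.44 CPM (log2 fold change 1.55 ± 0.20) and HSP60-2 (AT2G33210) by 1.01 ± 0.24 on the log2 scale, while CLPB4 (AT2G25140), the mitochondrial relative of HSP101, had -1.55 ± 0.43. The call of CLPB4 was lost when wild-type replicate 1 (adjusted p = 0.1065) or 2 (0.0698) was left out, and DESeq2 and limma voom each called 0 of the 6 lower.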
